A study of Mus musculus with 30 samples.

Results

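The genes described are 10 that are tied to T cell anergy, the state in which a T cell that has met antigen no longer responds fully to it. They are the ubiquitin ligases Cblb, Itch, Rnf128 and Dtx1, the ligase adaptor Ndfip1, the diacylglycerol kinases Dgka and Dgkz, the transcription factor Ikzf1, and the surface proteins Nrn1 and Lag3. They were chosen by symbol from 17097 genes on the array, and each was read from 1 probe set, the brightest on average across all 30 arrays among those annotated to that gene alone. Together the 10 genes have 19 such probe sets, and 3 of the genes have only 1.

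When a T cell receptor is engaged without costimulation, calcium signalling through NFAT proceeds while the Ras and AP-1 arm stays weak, and genes that hold the cell back are induced. Ubiquitin ligases among them mark signalling proteins such as phospholipase C gamma 1 and protein kinase C theta for removal. Diacylglycerol kinases turn the messenger diacylglycerol into phosphatidic acid and so limit the recruitment of RasGRP1 and protein kinase C theta.

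All mice were DO11.10 RAG2-/- on the BALB/c background, 8 to 10 weeks old. Their T cells carry one transgenic receptor for an ovalbumin (OVA) peptide, and the missing RAG2 stops them from making B cells or other T cell receptors. Arrays were run on CD4+ T cells and on a CD11c+ fraction, in which dendritic cells are enriched, with 5 groups of 3 arrays for either cell type. The groups were mice primed with OVA in complete Freund's adjuvant (CFA, 100 micrograms of OVA per mouse) and given abatacept at 10 mg/kg, mice tolerised by feeding, with OVA given in drinking water, mice primed likewise and given control IgG at 10 mg/kg, mice that were primed only, and unimmunised mice. Abatacept, a fusion of the CTLA-4 outer domain with an antibody tail, binds CD80 and CD86 and so withholds the CD28 costimulatory signal. Cells of the 3 primed groups were collected 10 days after immunisation, and no day is given here for the other groups. The source of the CD4+ cells was the axillary nodes of the 3 primed groups, the mesenteric nodes of tolerised mice and a pool of nodes and spleen in unimmunised mice. Tissue and treatment therefore cannot be told apart in CD4+ comparisons with tolerised or unimmunised mice. For CD11c+ cells a pool of nodes and spleen was used in every group. The statements of the OVA dose in the drinking water differ in unit, so it is not stated here.

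The T cell markers fitted the CD4+ label, with a mean log2 level over 10 markers of 10.74 in abatacept-treated, 10.56 in tolerised, 10.81 in control IgG, 10.82 in primed and 9.74 in unimmunised mice. In CD11c+ arrays the same 10 markers averaged 6.55 to 7.51, above the array medians of 4.46 to 4.54, and the 8 dendritic cell markers averaged 8.72 to 9.71. Other cells showed there as well. Group means were 9.29 to 10.21 for the macrophage and monocyte list, 8.27 to 9.42 for the erythroid list and 6.94 to 9.34 for the neutrophil list. The CD4+ arrays of unimmunised mice stood apart, because their neutrophil list averaged 9.98 and their erythroid list 9.33, against 3.86 and 4.29 in primed mice. The tolerised CD4+ arrays held more signal of mast cell and basophil genes, with a list mean of 5.74 against 3.33 in primed mice, of neutrophil genes (5.10 against 3.86) and of macrophage and monocyte genes (5.15 against 4.26). Eif2s3y, which lies on the Y chromosome, averaged 8.89 in tolerised and 8.62 in primed CD4+ arrays, against 2.41 to 2.75 on the CD4+ arrays of the other groups, and the labels used here give no sex. Xist, the other sex-linked gene read by array, was at 10.27, 9.31 and 10.89 on the primed and 7.28, 5.61 and 5.62 on the tolerised CD4+ arrays. It averaged 11.40 under abatacept and 11.23 under control IgG, so both genes were high together on the primed arrays. In these bulk samples fewer cells of a type and less RNA per cell cannot be told apart.

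Promoter windows were listed in RefSeq (build GRCm38.p6) for 6 of the 10 genes, 11 windows in all, each running from 250 bases before to 50 bases after a transcription start. Of these, 4 are shown: Dtx1 and Rnf128, whose levels differed most between CD4+ groups among genes with a listed window, and Cblb and Dgkz, which ran together over the CD4+ arrays (r = 0.96, n = 15). Capitals mark matches on either strand to the EGR motif (GCGTGGGCG or GCGGGGGCG), the AP-1 motif TGAGTCA, the RBPJ motif TGGGAA or the NFAT core GGAAA, of which the last pair can overlap. Dtx1 lies at chr5:120711620-120711919 on the minus strand, Rnf128 at chrX:139610370-139610669 on the plus strand, Cblb at chr16:52031299-52031598 on the plus strand, and this one of the 2 Dgkz windows at chr2:91950299-91950598 on the minus strand.
Dtx1: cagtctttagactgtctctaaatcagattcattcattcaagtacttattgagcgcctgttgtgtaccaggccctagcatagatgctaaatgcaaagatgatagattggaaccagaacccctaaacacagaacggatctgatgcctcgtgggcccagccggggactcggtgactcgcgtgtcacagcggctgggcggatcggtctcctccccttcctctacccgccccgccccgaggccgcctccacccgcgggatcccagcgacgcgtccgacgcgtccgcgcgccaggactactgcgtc
Rnf128: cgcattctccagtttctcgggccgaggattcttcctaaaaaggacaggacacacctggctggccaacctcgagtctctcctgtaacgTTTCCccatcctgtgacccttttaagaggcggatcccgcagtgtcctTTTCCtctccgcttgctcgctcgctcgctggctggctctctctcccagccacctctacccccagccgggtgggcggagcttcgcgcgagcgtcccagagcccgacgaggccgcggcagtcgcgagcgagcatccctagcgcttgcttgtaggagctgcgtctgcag
Cblb: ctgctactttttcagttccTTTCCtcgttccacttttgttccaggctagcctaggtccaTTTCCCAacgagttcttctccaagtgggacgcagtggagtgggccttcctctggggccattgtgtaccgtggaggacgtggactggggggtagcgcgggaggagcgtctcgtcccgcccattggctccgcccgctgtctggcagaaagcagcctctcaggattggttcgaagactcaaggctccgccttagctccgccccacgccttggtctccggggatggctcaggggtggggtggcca
Dgkz: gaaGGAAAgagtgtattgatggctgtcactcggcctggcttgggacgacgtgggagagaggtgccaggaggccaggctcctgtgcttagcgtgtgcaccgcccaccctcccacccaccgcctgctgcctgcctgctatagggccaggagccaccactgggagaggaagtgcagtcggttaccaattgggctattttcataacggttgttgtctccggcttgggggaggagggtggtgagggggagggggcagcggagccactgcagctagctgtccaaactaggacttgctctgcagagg

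The NFAT core was found in 6 of the 11 windows and in 61.5% of the 32544 RefSeq windows of this length. An RBPJ match stood in 2 of the 11 windows, against 25.4% of all. EGR and AP-1 matches stood in 0 of the 11, against 3.5% and 5.19% of all. These counts describe letters in short windows and carry no statement on binding.

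**Figure D1:**
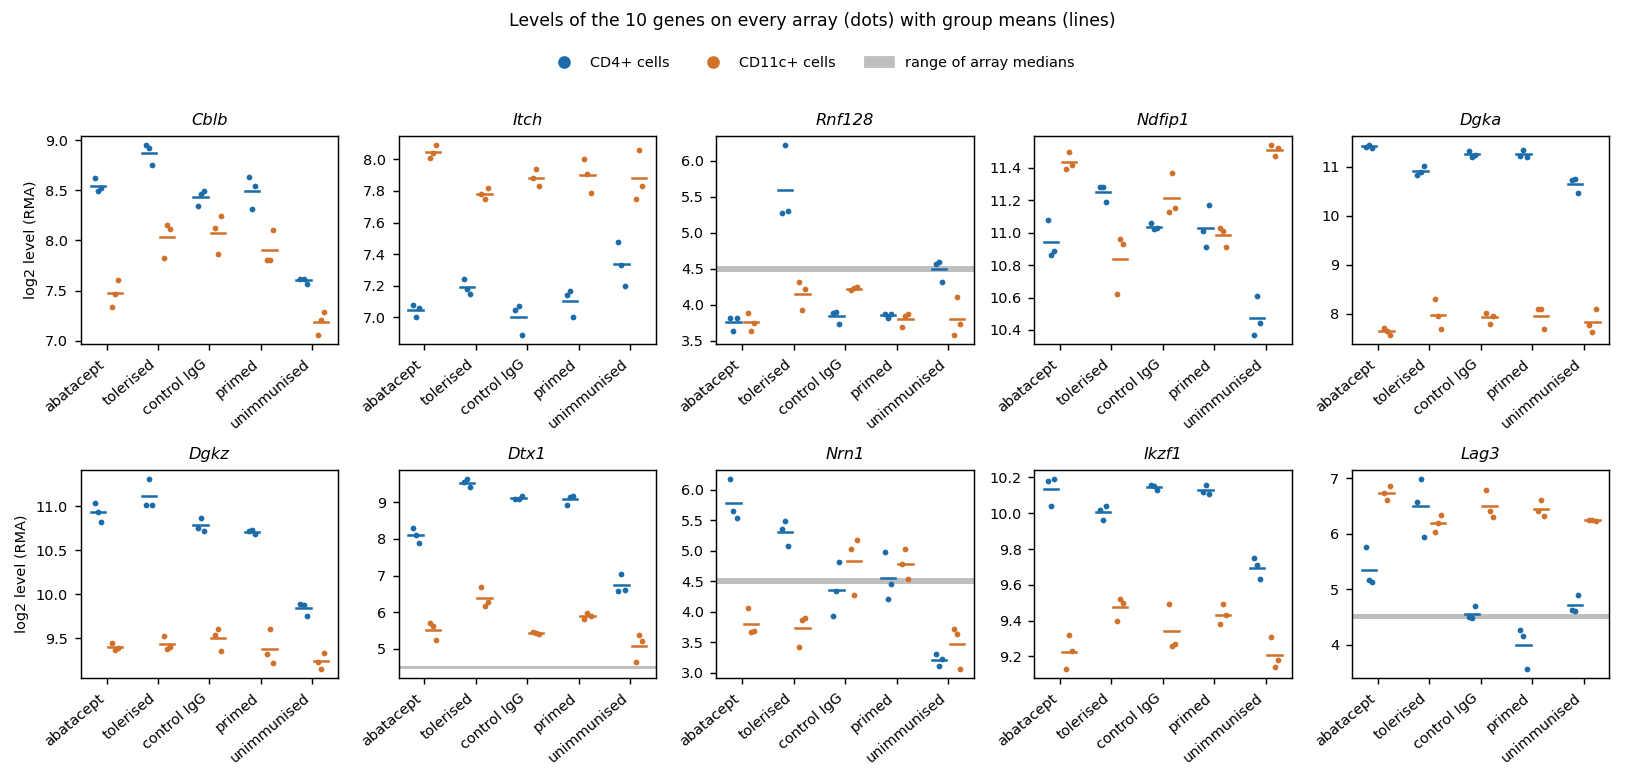
Log2 levels (vertical axes) of the 10 genes on each of the 30 arrays, by group (horizontal axes), with CD4+ cells in blue and CD11c+ cells in orange. Dots are arrays, lines are group means, and the grey band marks the array medians of 4.46 to 4.54. Rnf128 passed the band on all 3 arrays only in tolerised CD4+ cells, at 5.27, 6.22 and 5.31.

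Among the ligases, Cblb encodes Cbl-b, a RING ligase that sets the threshold for activation without CD28. In CD4+ cells its levels were 8.62, 8.49 and 8.52 in abatacept-treated, 8.95, 8.92 and 8.75 in tolerised, 8.34, 8.46 and 8.49 in control IgG, 8.63, 8.31 and 8.54 in primed and 7.62, 7.62 and 7.57 in unimmunised mice. The tolerised arrays lay above every other array, the 3 primed groups overlapped, and the unimmunised arrays lay below. In order of level, the step from control IgG up from unimmunised mice (0.83, adjusted p = 4.7e-06) and the step from tolerised down to abatacept-treated mice (0.33, adjusted p = 0.017) passed the test, and those between the 3 primed groups did not. Adjusted p-values throughout are from limma over all genes tested, and a gene is called below 0.05. The other Cblb probe set gave 0.49 between tolerised and primed mice (adjusted p = 0.034), and between abatacept-treated and tolerised mice it gave -0.36, which did not pass (adjusted p = 0.087).

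Rnf128 encodes GRAIL, a membrane-bound RING ligase first tied to anergy in CD4+ T cells. Its levels were 3.82, 3.64 and 3.81 in abatacept-treated, 5.27, 6.22 and 5.31 in tolerised, 3.89, 3.90 and 3.73 in control IgG, 3.87, 3.81 and 3.87 in primed and 4.56, 4.59 and 4.32 in unimmunised mice. The 9 arrays of the 3 primed groups all lay below their array medians, so the gene was not shown to be above background there and passed the filter through the tolerised and unimmunised arrays. Its fold between tolerised and primed mice is therefore not exact. The step from tolerised down to unimmunised mice was 1.11 (adjusted p = 0.00031), and that from unimmunised down to primed mice was 0.64 (adjusted p = 0.014). The other Rnf128 probe set was above the array median on 1 array, in tolerised mice, at 4.79. It averaged 4.38 ± 0.36 in tolerised and 3.01 ± 0.15 in primed mice (SD, n = 3 each) and was too low to be tested.

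Mast cell genes were higher in tolerised than in primed mice, as was Rnf128, though they did not all follow it over the other arrays. Mcpt1, a mast cell protease, was the gene whose levels ran closest to Rnf128 over the CD4+ arrays (r = 0.977, n = 15), and it stayed the closest with unimmunised arrays left out (r = 0.992, n = 12). Mcpt1 was at 6.28, 8.29 and 5.41 on the tolerised arrays, where Rnf128 was also highest on array 2, against 1.99, 1.99 and 2.17 on the primed arrays. All 6 mast cell and basophil markers were higher in tolerised than in primed mice, with a median log2 difference of 2.57. Their summed level ran from 27.0 to 38.2 in tolerised, from 19.7 to 20.3 in primed and from 36.4 to 37.2 in unimmunised mice, and in primed mice all 6 were below the array median. Mcpt1, which is not among the 6, averaged 6.66 ± 1.48 in tolerised and 4.45 ± 0.23 in unimmunised mice. Cpa3, a mast cell carboxypeptidase, averaged 7.27 ± 0.88 in tolerised and 6.57 ± 0.11 in unimmunised mice (SD, n = 3 each). The mean over the 6 markers ran the other way, at 5.74 in tolerised and 6.16 in unimmunised mice. On tolerised arrays 1 to 3 Cpa3 read 7.83, 7.71 and 6.26, where Rnf128 read 5.27, 6.22 and 5.31. The part of mast cell RNA in the Rnf128 difference was not tested.

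**Figure D2:**
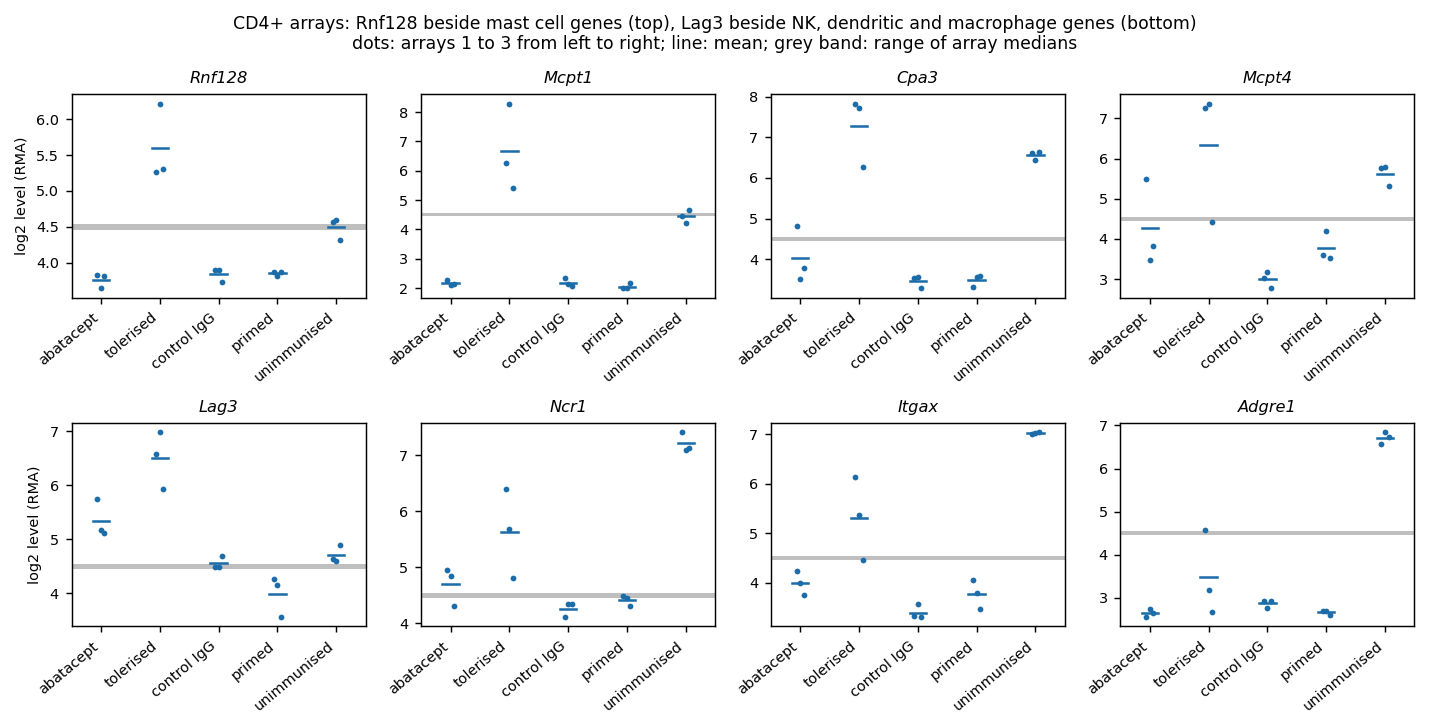
Log2 levels (vertical axes) on each CD4+ array by group (horizontal axes), with Rnf128 beside the mast cell genes Mcpt1, Cpa3 and Mcpt4 on top, and Lag3 beside Ncr1 (NK cells), Itgax (dendritic cells) and Adgre1 (macrophages) below. Dots are arrays 1 to 3 of a group from left to right, lines are means and the grey band marks the array medians. Rnf128 and Mcpt1 were both highest on tolerised array 2, at 6.22 and 8.29.

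Dtx1 encodes Deltex1, a ligase that is a target of Notch and, in anergic cells, of NFAT. Its levels were 8.30, 8.10 and 7.90 in abatacept-treated, 9.55, 9.63 and 9.41 in tolerised, 9.09, 9.10 and 9.16 in control IgG, 8.94, 9.14 and 9.16 in primed and 6.59, 7.04 and 6.62 in unimmunised mice. No abatacept-treated array reached the lowest array of the other immunised or tolerised groups, and none fell to the unimmunised range. In order of level, the step from primed down to abatacept-treated mice was 0.98 (adjusted p = 0.00014) and that from abatacept-treated down to unimmunised mice was 1.35 (adjusted p = 1.1e-06). The step from tolerised down to control IgG mice, 0.41, was not called (adjusted p = 0.05 after rounding).

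Itch encodes a HECT ligase of the NEDD4 family, and Ndfip1 encodes the membrane adaptor that recruits and activates it. Itch differed little, between 7.01 ± 0.10 in control IgG and 7.34 ± 0.14 in unimmunised mice (SD, n = 3 each), and no step between neighbouring groups passed the test. Its probe sets disagreed. Against unimmunised mice the one used was 0.29 lower under abatacept (adjusted p = 0.0084), while the other Itch probe sets were 0.66 higher (adjusted p = 0.0057) and 0.78 higher (adjusted p = 0.0011). No direction is given for Itch across the CD4+ groups for that reason.

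Ndfip1 stood at 11.08, 10.86 and 10.89 in abatacept-treated, 11.28, 11.28 and 11.19 in tolerised, 11.06, 11.02 and 11.03 in control IgG, 11.01, 10.91 and 11.17 in primed and 10.37, 10.61 and 10.44 in unimmunised mice. The unimmunised arrays lay below all others. The tolerised arrays lay above those of the 3 primed groups, though the step down to control IgG, 0.21, did not pass the test (adjusted p = 0.15).

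The diacylglycerol kinases are Dgka and Dgkz. Dgka encodes the alpha isoform, which calcium activates, and Dgkz the zeta isoform. Dgka levels were 11.41, 11.44 and 11.39 in abatacept-treated, 10.83, 10.89 and 11.02 in tolerised, 11.32, 11.20 and 11.23 in control IgG, 11.22, 11.34 and 11.20 in primed and 10.73, 10.74 and 10.47 in unimmunised mice. The tolerised arrays lay between the unimmunised ones and those of the 3 primed groups without touching either. The difference from primed mice did not hold relative to T cell markers (-0.08, adjusted p = 0.47). Of those markers, Trat1 averaged 6.98 in tolerised and 9.06 in primed mice, while Cd3e averaged 11.53 in both and Cd4 10.29 and 10.40. Dgkz levels were 11.04, 10.94 and 10.82 in abatacept-treated, 11.02, 11.31 and 11.02 in tolerised, 10.76, 10.87 and 10.72 in control IgG, 10.72, 10.73 and 10.69 in primed and 9.89, 9.88 and 9.75 in unimmunised mice. Here the tolerised arrays lay above those of primed and control IgG mice and overlapped with the abatacept-treated ones. Among neighbouring groups, Dgkz passed the test only between primed and unimmunised mice (0.87, adjusted p = 3.7e-06).

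Lag3 encodes an inhibitory receptor that binds MHC class II. Its levels were 5.75, 5.17 and 5.12 in abatacept-treated, 6.57, 6.98 and 5.94 in tolerised, 4.49, 4.48 and 4.70 in control IgG, 4.26, 4.16 and 3.56 in primed and 4.63, 4.60 and 4.90 in unimmunised mice. The abatacept-treated arrays lay between the unimmunised and the tolerised ones, with steps of 0.64 above unimmunised (adjusted p = 0.042) and 1.15 below tolerised mice (adjusted p = 0.005). The smaller step was not called without unimmunised replicate 1 or 2 or abatacept-treated replicate 1 (adjusted p up to 0.17), and relative to T cell markers it was -0.37 (adjusted p = 0.17). In primed mice all 3 arrays lay below their array medians, so folds against that group are not exact. NK and dendritic cells also express Lag3, and the list means of both were higher in tolerised than in primed mice. The NK list averaged 6.08 in abatacept-treated, 6.74 in tolerised, 5.57 in control IgG, 5.62 in primed and 7.37 in unimmunised mice, and 4 of its 7 tested genes were higher in tolerised than in primed mice. The dendritic cell list averaged 4.95 under abatacept, 5.77 in tolerised, 4.72 under control IgG, 4.86 in primed and 6.80 in unimmunised mice. Some markers differed less between tolerised and primed mice. Flt3 averaged 3.64 and 3.34, Zbtb46 6.12 and 6.02 (both of dendritic cells), and the NK gene Klrd1 5.34 and 5.19. In unimmunised mice, where Ncr1 (an NK receptor) stood at 7.41, 7.10 and 7.13 and Itgax (CD11c) at 7.01, 7.02 and 7.04, Lag3 was 1.79 lower than in tolerised mice, in which Ncr1 read 6.39, 5.69 and 4.81 and Itgax 6.13, 5.36 and 4.45. The part of these cells in the Lag3 differences was not tested.

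Nrn1 encodes neuritin, a small membrane-anchored protein found on anergic and regulatory T cells. Its levels were 6.17, 5.65 and 5.53 in abatacept-treated, 5.35, 5.48 and 5.07 in tolerised, 3.92, 4.34 and 4.82 in control IgG, 4.97, 4.21 and 4.45 in primed and 3.30, 3.10 and 3.23 in unimmunised mice. Nrn1 and Dgka were the genes of the set with their highest CD4+ mean under abatacept, although the step down to the next group did not pass for either, at 0.48 for Nrn1 (tolerised mice, adjusted p = 0.16) and 0.16 for Dgka (primed mice, adjusted p = 0.2). Only 1 array each of the control IgG and primed groups and 0 of the unimmunised group lay above the array median. The gene therefore passed the filter mainly through the other groups, and its differences from control IgG, primed and unimmunised mice are not exact.

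Ikzf1 encodes Ikaros, a zinc finger protein that silences Il2 in anergic cells. It averaged 10.14 ± 0.08 in abatacept-treated, 10.01 ± 0.04 in tolerised, 10.14 ± 0.02 in control IgG, 10.13 ± 0.03 in primed and 9.70 ± 0.06 in unimmunised mice (SD, n = 3 each). The step from tolerised down to unimmunised mice was 0.31 (adjusted p = 0.0014), and no other step between neighbours passed. With the other Ikzf1 probe set, tolerised against primed mice gave -0.25 (adjusted p = 0.036). Abatacept-treated against tolerised mice gave 0.24 with it (adjusted p = 0.031).

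The comparison of abatacept with control IgG asks how withholding CD28 signals during priming altered these genes. In CD4+ cells Nrn1 rose, Dtx1 fell and Lag3 rose, 3 of the 10 genes, against 16.7% of all 10322 genes tested. Nrn1 averaged 5.78 ± 0.34 under abatacept and 4.36 ± 0.45 under control IgG, a log2 difference of 1.42 (SE 0.24, adjusted p = 0.0012). That difference is not exact, because only 1 control IgG array lay above the array median for Nrn1. Dtx1 averaged 8.10 ± 0.20 under abatacept and 9.12 ± 0.04 under control IgG, a difference of -1.02, a 2.02-fold fall (SE 0.13, adjusted p = 0.00014). Lag3 averaged 5.35 ± 0.35 under abatacept and 4.56 ± 0.13 under control IgG, a difference of 0.79 (SE 0.25, adjusted p = 0.046). The arrays of each of these genes did not overlap between the groups. The same held for Dgka, which was not called (adjusted p = 0.21), and the share of all genes without overlap was not counted.

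The other 7 genes did not pass, and their 95% intervals bound what could be missed. Cblb differed by 0.11 (-0.08 to 0.31), Dgka by 0.16 (-0.02 to 0.34), Dgkz by 0.15 (-0.05 to 0.34) and Ndfip1 by -0.09 (-0.29 to 0.10). Rnf128 differed by -0.08 (-0.50 to 0.33), with both groups below the array medians. The median difference over the 10 genes was 0.07, against -0.07 over all genes tested. The Nrn1 call held without any single array of the groups (adjusted p at most 0.0066). The Lag3 call was lost without any one of the 6 arrays (adjusted p up to 0.14), and the other Dtx1 probe set gave -0.57 (adjusted p = 0.063).

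**Figure D3:**
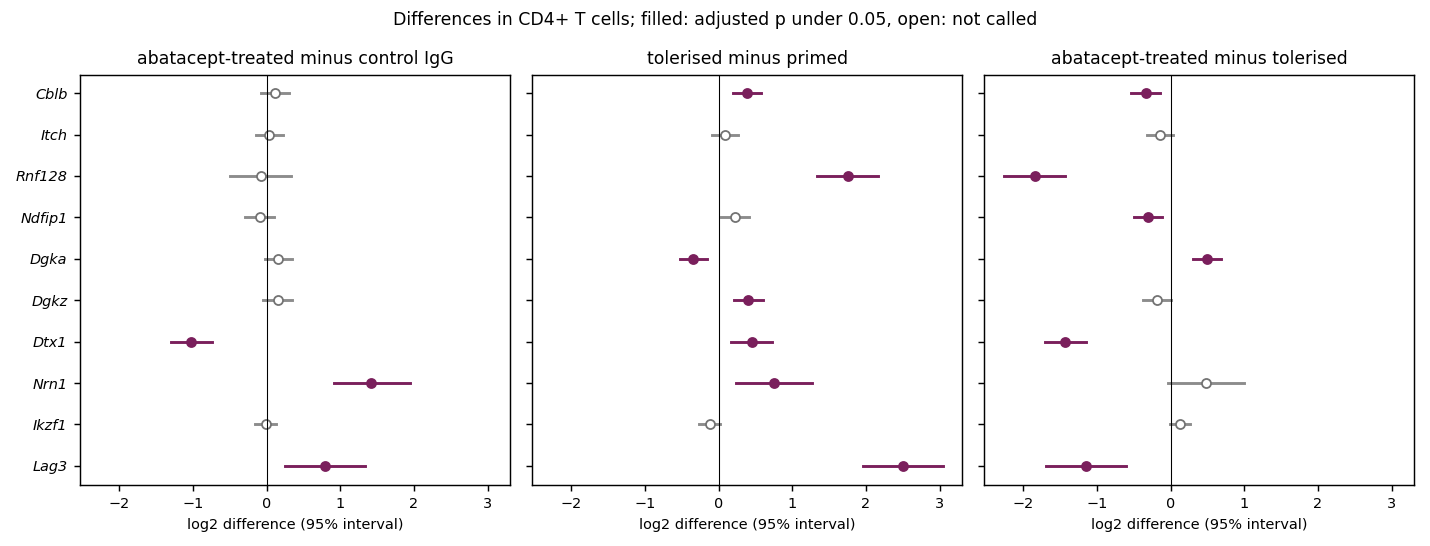
Log2 differences in CD4+ T cells (horizontal axes, dots with 95% intervals) for each of the 10 genes (vertical axis) in 3 comparisons, with filled symbols where the adjusted p was under 0.05. Rnf128 read -0.08, 1.75 and -1.84 from the left panel to the right one, and Dtx1 read -1.02, 0.45 and -1.43.

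Tolerised against primed mice sets fed antigen against antigen in adjuvant, in different lymph nodes. In CD4+ cells 6 of the 10 genes rose and 1 fell, against 14.7% of all genes tested called in either direction. Lag3 and Rnf128 rose with fitted log2 differences of 2.50 (SE 0.25, adjusted p = 3.4e-05) and 1.75 (SE 0.19, adjusted p = 7.5e-05), which are not exact because both lay below the array median on all 3 primed arrays. The other rises were those of Nrn1 (0.75, adjusted p = 0.049), Dtx1 (0.45, adjusted p = 0.031), Dgkz (0.40, adjusted p = 0.0098) and Cblb (0.38, adjusted p = 0.011). The Nrn1 value is not exact either, because only 1 primed array lay above the array median. The other Dtx1 probe set gave 0.36, which did not pass (adjusted p = 0.25). Dgka fell by 0.34 (SE 0.08, adjusted p = 0.015), averaging 10.91 ± 0.09 in tolerised and 11.25 ± 0.07 in primed mice (SD, n = 3 each). Ndfip1 differed by 0.22 (adjusted p = 0.13), Itch by 0.09 and Ikzf1 by -0.12. The other Ikzf1 probe set gave -0.25, which passed (adjusted p = 0.036). The median over the 10 genes was 0.39, against -0.05 over all genes tested.

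The count depended on single arrays, at 3 genes without tolerised replicate 1 and 4 without primed replicate 2. Calls of Lag3, Rnf128 and Dgkz held without any single array, while that of Nrn1 failed without 4 of the 6 (all but primed replicate 1 and tolerised replicate 3) and that of Dtx1 without 5 of the 6 (all but tolerised replicate 3). The Nrn1 call was kept in 3 of 9 other settings and lost with the replicate block, with array weights, after another quantile normalization, with no filter, with only the groups compared and without unimmunised arrays (adjusted p up to 0.094). T cell markers averaged 10.56 in tolerised and 10.82 in primed mice, with Trat1 at 6.98 and 9.06, Cd3e at 11.53 in both and Cd4 at 10.29 and 10.40. With levels taken relative to the markers 8 genes rose and 0 fell, against 3220 and 294 of all 10322 genes tested. Dgka was at -0.08 on that scale (adjusted p = 0.47), and the median of all genes moved to 0.22.

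Against tolerised mice, abatacept-treated mice showed lower Rnf128 (-1.84, adjusted p = 2.1e-05), Dtx1 (-1.43, adjusted p = 7.1e-06), Lag3 (-1.15, adjusted p = 0.005), Cblb (-0.33, adjusted p = 0.017) and Ndfip1 (-0.30, adjusted p = 0.025), and higher Dgka (0.50, adjusted p = 0.00097). These are 6 of 10 genes, against 23.3% of all genes. Dgkz (-0.19, 95% interval -0.38 to 0.01), Nrn1 (0.48, adjusted p = 0.16), Itch and Ikzf1 did not pass. Other probe sets of the last pair did pass, with 0.24 for Ikzf1 (adjusted p = 0.031). For Itch they gave 0.55 (adjusted p = 0.037) and 0.60 (adjusted p = 0.019). The Cblb and Ndfip1 calls were lost without any one of 4 of the 6 arrays (abatacept-treated replicates 2 and 3, tolerised replicates 1 and 2), with adjusted p up to 0.068 and 0.095. Relative to T cell markers 1 gene was higher and 7 were lower, against 326 and 3891 of all 10322 genes tested. All 6 mast cell and basophil markers were lower under abatacept too, by a median of -2.16. Without the unimmunised arrays, a fit chosen after the data were seen, the count stayed at 6.

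Against unimmunised mice nearly every gene of the set was called, as were many genes of the array. Under abatacept 8 rose and 2 fell, against 57.9% of all genes called. In tolerised mice 9 rose and 0 fell, against 49.5%. In primed mice 7 rose and 3 fell, against 47.4%. Itch counts among the falls under abatacept and in primed mice by the probe set used, while its other probe sets read higher there. Dtx1 rose by 2.77 in tolerised (SE 0.13, adjusted p = 1.4e-09) and 2.32 in primed mice (SE 0.13, adjusted p = 7.5e-09). Nrn1 rose under abatacept by a fitted 2.57 (SE 0.24, adjusted p = 8e-07), which is not exact because its unimmunised arrays lay below the array median. Rnf128 rose only in tolerised mice (1.11) and was lower in primed (-0.64) and abatacept-treated ones (-0.73).

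T cell markers moved with these results, since all 10 were higher in abatacept-treated and in primed than in unimmunised mice, by medians of 1.04 and 1.03, and 9 of 10 in tolerised mice, by 0.84. Taking levels relative to those markers moved the median of all genes to -1.06 in abatacept-treated and in primed and to -0.85 in tolerised mice. The counts of higher and lower genes of the set were then 2 and 5 under abatacept, 5 and 3 in tolerised and 1 and 7 in primed mice. Over all 10322 genes tested they were 140 and 9514 under abatacept, 315 and 9113 in tolerised and 165 and 9685 in primed mice. Dtx1 stayed higher in primed (1.24, adjusted p = 1.9e-07) and tolerised mice (1.95, adjusted p = 6.3e-09). Dgka and Ikzf1 turned to lower in all 3 groups, and Ndfip1 under abatacept (-0.54) and in primed mice (-0.53). On that scale Cblb was at -0.06 under abatacept (adjusted p = 0.49) and -0.19 in primed mice (adjusted p = 0.056), and Rnf128 was at 0.29 in tolerised mice (adjusted p = 0.17).

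Control IgG against primed mice serves as a check of the antibody injection. None of the 10 genes was called by limma, with 0 at an adjusted p under 0.05, against 0.0872% of all genes (9 genes, all lower, and 873 at an unadjusted p under 0.05). Lag3 was the most different at 0.56 (adjusted p = 0.58). The Y-linked Eif2s3y differed between these groups, at 2.51 under control IgG and 8.62 in primed mice.

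Counts for relatives and partners of the 10 genes are read against the 16.7% of all genes called between abatacept and control IgG and the 14.7% called between tolerised and primed mice. Of 7 other genes of the CBL and deltex families, 1 was called under abatacept against control IgG, Dtx4, which fell by 1.23 (adjusted p = 0.001) to 4.03 ± 0.27 against 5.26 ± 0.30 under control IgG. That abatacept mean lay below the array medians, so the fall is not exact. Dtx4, a paralog of Dtx1, was also the 1 gene of 7 to rise in tolerised mice, by 1.69 (adjusted p = 0.00013) over primed mice. Among 8 NEDD4 family genes tested, under abatacept Nedd4 fell by 0.99 (adjusted p = 0.0068) and Nedd4l rose by 0.70 (adjusted p = 0.024). In tolerised mice Smurf2 (0.68), Nedd4 (0.85) and Hecw1 (0.98) rose and Wwp1 fell by 0.37, and the median over the list was 0.07.

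Among 9 relatives and regulators of GRAIL, 2 rose and 3 fell under abatacept, with Rnf43 falling by 1.5 (adjusted p = 0.00014). In tolerised mice 1 of the 9 rose, Rnf130, by 0.87 (adjusted p = 0.00088). None of the 4 other diacylglycerol kinases tested was called by limma between abatacept and control IgG, and in tolerised mice Dgkd fell by 0.40 (adjusted p = 0.038). Of 12 genes of diacylglycerol and Ras signalling, 0 were called under abatacept. In tolerised mice Rasgrp2, a Ras family exchange factor, fell by 0.56 (adjusted p = 0.0095), Prkcq, which encodes protein kinase C theta, fell by 0.44 (adjusted p = 0.0005), and Plcg2, the phospholipase of myeloid and B cells, rose by 1.51 (adjusted p = 0.0071). In the same comparison 4 of 10 macrophage and monocyte markers rose and 1 fell, 2 of 9 neutrophil markers rose, and their part in the Plcg2 difference was not tested.

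Of 15 genes listed as substrates of the ligases, 2 were called under abatacept and 3 in tolerised mice, shares near those of all genes. Under abatacept Jun, a subunit of AP-1, rose by 1.55 (adjusted p = 6.4e-06) and Rora fell by 1.29 (adjusted p = 0.00016). In tolerised mice Cd40lg, through which helper T cells engage CD40 on antigen-presenting cells, fell by 1.87 (adjusted p = 1.8e-05), Prkcq fell as above, and Cd83 rose by 0.78 (adjusted p = 0.046). Il2, the target of Ikaros, fell by 1.49 under abatacept (adjusted p = 0.00038), to 4.10 ± 0.27 against 5.59 ± 0.05 under control IgG. The Il2 mean under abatacept lay below the array medians, so this fall is not exact. In tolerised mice the Ikaros relatives Ikzf2, Ikzf3 and Ikzf4 rose by 1.43, 1.10 and 1.31, 3 of 9 genes of that list, and Il2 was not called.

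Coinhibitory receptors other than Lag3 split under abatacept. Of 8 tested, Cd160 rose by 0.73 (adjusted p = 0.015) and Havcr2 and Entpd1 fell by 1.35 and 1.27. In tolerised mice 4 rose and 0 fell, among them Ctla4 by 1.18 (adjusted p = 0.0014) and Pdcd1, which encodes PD-1, by 0.93 (adjusted p = 0.0071). Of 15 other genes tied to anergy, 4 rose and 2 fell under abatacept, with Nr4a3 and Nr4a1, nuclear receptors induced by receptor signalling, each up by 1.46. In tolerised mice 7 rose and 4 fell. The 4 with the smallest adjusted p were Nr4a3 (1.79), Nt5e (1.70), Egr2 (1.28) and Izumo1r (1.13), all higher.

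The genes whose levels ran closest to each of the 10 over the 15 CD4+ arrays are given as a description, since those arrays share the split between unimmunised and other mice. Cblb ran with Prkch (r = 0.983), Itgal and Egr2, Dgkz with Agfg1 (r = 0.988), Inpp4b and Lad1, and Dtx1 with Spsb1 (r = 0.984), Nfkbie and Synpo. Ndfip1 ran with Rest (r = 0.977), Rnf19a and Ikzf2, Dgka with Usp3 (r = 0.973), Gpr132 and Kif21b, and Ikzf1 with Il16 (r = 0.979), Satb1 and Fyb. Nrn1 ran with Clk1 (r = 0.949), Pou2af1 and Tagap, Itch with Sdad1 (r = 0.91), Serbp1 and Dkc1, and Lag3 with Mmd (r = 0.908), Gm31718 and Gfi1. After Mcpt1, Rnf128 ran with Adgre5 (r = 0.94) and Fcrl1. Of the 30 likest genes, Mcpt1 for Rnf128 and Rnf19a for Ndfip1 still ranked at the top over the 12 arrays without unimmunised mice. Within the set, Dgkz and Cblb (r = 0.96), Ndfip1 and Cblb (r = 0.95) and Dtx1 and Ndfip1 (r = 0.94) ran closest, and the lowest correlations were those of Dgka with Itch and Ikzf1 with Itch (both r = -0.71) and of Dgka with Rnf128 (r = -0.60).

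The CD11c+ fraction served as the other cell type under the same treatments. Dgka was 2.81 to 3.77 higher and Dtx1 1.67 to 3.69 higher in CD4+ than in CD11c+ cells across the groups, with 0.78 from the other Dtx1 probe set in unimmunised mice. Dgkz (0.60 to 1.68), Cblb (0.35 to 1.07) and Ikzf1 (0.49 to 0.91) were also higher in CD4+ cells in all 5 groups, though the other Cblb probe set did not pass under control IgG (0.36, adjusted p = 0.066) or in unimmunised mice (0.11, adjusted p = 0.58). Itch was lower in CD4+ cells in all 5 groups by the probe set used, most under abatacept and least in unimmunised mice (-0.54). Other Itch probe sets turned that sign under abatacept (0.01 and 0.25) and, in 1 case, under control IgG (0.24). They also turned the order, with their largest falls in unimmunised mice (-0.97 and -0.51).

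The difference between the cell types varied with treatment for Lag3 and Nrn1. Lag3 was lower in CD4+ than in CD11c+ cells under abatacept (-1.38), control IgG (-1.94), priming (-2.44) and in unimmunised mice (-1.53), while in tolerised mice it differed by 0.31 (95% interval -0.12 to 0.74). Nrn1 was higher in CD4+ cells under abatacept (1.98, adjusted p = 1.9e-07) and in tolerised mice (1.57, adjusted p = 8.2e-06), and did not pass elsewhere. On the CD11c+ arrays of those groups Nrn1 lay below the array median. Between the cell types 9 of 10 genes were called under abatacept (68.9% of all 10794 genes), 9 in tolerised (60.3%), 7 in control IgG (65.9%), 7 in primed (63.5%) and 9 in unimmunised mice (66.5%).

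**Figure D4:**
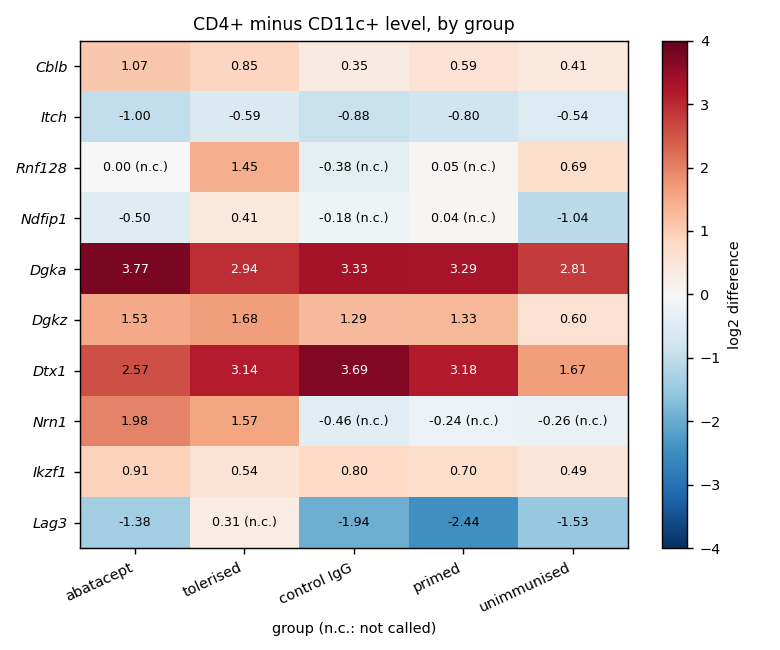
Log2 level in CD4+ cells minus that in CD11c+ cells for each of the 10 genes (rows) in each group (columns), with the difference printed in the cell and n.c. where it was not called. Dgka and Dtx1 were higher in CD4+ cells in all 5 groups, and Lag3 ran from -2.44 in primed to 0.31 in tolerised mice.

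Within CD11c+ cells 9 of the 10 genes passed the filter, and Rnf128 did not, lying below the array median on all 15 arrays. Under abatacept Cblb fell by 0.60 (SE 0.12, adjusted p = 0.0072) and Nrn1 by 1.02 (SE 0.24, adjusted p = 0.013) against control IgG, 2 genes of 9, against 15.3% of all 10203 genes tested. Cblb stood at 7.34, 7.47 and 7.61 under abatacept and 8.12, 7.87 and 8.24 under control IgG, with no overlap. Nrn1 stood at 4.06, 3.66 and 3.68 under abatacept and 5.03, 4.27 and 5.17 under control IgG. Over the CD11c+ groups Nrn1 lay above the array median on 3 primed and 2 control IgG arrays and on 0 arrays of each other group. It therefore passed the filter through the groups where it was high, and its CD11c+ differences are not exact. Of the markers, 5 of 8 dendritic cell genes fell under abatacept as well (median -0.39), and 5 of 10 macrophage and monocyte genes rose (median 0.61) and 2 fell. Of the plasmacytoid dendritic cell markers 4 of 6 fell, with list means of 6.72 under abatacept and 7.29 under control IgG, and 2 of 10 T cell markers fell, with list means of 6.70 and 7.24. Eif2s3y differed as well, averaging 2.53 under abatacept and 7.63 under control IgG. The part of these cells and of sex in the Cblb and Nrn1 falls was not tested. Without control IgG replicate 1 or 3 or abatacept replicate 2 the Nrn1 call was lost and the count was 1.

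Between tolerised and primed mice 1 of 9 genes was called in CD11c+ cells, against 2.84% of all genes. It was Nrn1, which fell by a fitted 1.06 (adjusted p = 0.032), with its tolerised arrays below the array median. Its arrays read 3.42, 3.86 and 3.89 in tolerised and 4.78, 5.03 and 4.54 in primed mice, and without primed replicate 1 or 2 or tolerised replicate 1 or 3 the count was 0. Eif2s3y moved with Nrn1 here. It read 2.84, 2.61 and 2.40 in tolerised and 8.64, 8.58 and 8.53 in primed CD11c+ arrays, and 8.76, 5.92 and 8.20 under control IgG, where array 2 was also lowest for Nrn1. It averaged 2.53 under abatacept and 2.59 in unimmunised mice, where Nrn1 was at 3.80 and 3.47. Plasmacytoid dendritic cell markers also moved with Nrn1 over the CD11c+ groups, with list means of 6.72 under abatacept, 6.70 in tolerised, 7.29 under control IgG, 7.20 in primed and 6.13 in unimmunised mice, and 2 of 6 were lower in tolerised than in primed mice. In CD4+ cells the order differed, with Nrn1 highest under abatacept, where Eif2s3y was at 2.41, 2.65 and 2.75. The part of sex and of plasmacytoid cells in the CD11c+ difference was not tested.

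Against unimmunised mice, Cblb (0.84), Dtx1 (1.30) and Ikzf1 (0.26) rose and Ndfip1 fell by 0.68 (adjusted p = 8e-05) in tolerised CD11c+ cells, 4 of 9 genes, against 48.6% of all genes. In primed mice Cblb (0.72), Dtx1 (0.81), Nrn1 (1.31) and Ikzf1 (0.22) rose and Ndfip1 fell by 0.53 (adjusted p = 0.00088), 5 of 9, against 38.6%. The Nrn1 rise is not exact, because its unimmunised CD11c+ arrays lay below the array median. With the other Dtx1 probe set the Dtx1 differences were 0.25 (adjusted p = 0.25) and 0.22 (adjusted p = 0.35), and neither passed. The Ikzf1 call in tolerised mice was lost with its other probe set (0.20, adjusted p = 0.081) and without replicate 2 or 3 of either group (adjusted p up to 0.073), and the Ikzf1 call in primed mice lay at an adjusted p that rounds to 0.05, with a count of 4 under the replicate block. T cell markers were among the genes that were higher in the same arrays, 8 of 10 in tolerised and 6 of 10 in primed mice, by medians of 1.04 and 0.66. So were 7 of 8 dendritic cell markers and 8 of 8 neutrophil markers tested, in both comparisons, while 8 of 10 macrophage and monocyte markers were lower. The part of these cells in the CD11c+ differences was not tested.

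An interaction term in the fit of all 30 arrays asked whether CD4+ and CD11c+ cells changed unequally. Under abatacept against control IgG, 3 of 10 genes changed differently, against 14.3% of all genes. Nrn1 rose in CD4+ cells and fell in CD11c+ cells, a difference between the changes of 2.45 (95% interval 1.71 to 3.18, adjusted p = 4.9e-05). This value is not exact, since the abatacept-treated CD11c+ arrays lay below the array median for Nrn1. Cblb fell in CD11c+ cells and was at 0.11 in CD4+ cells, where it was not called (0.72, adjusted p = 0.0025), and its other probe set gave 0.66 (adjusted p = 0.068). Dtx1 fell in CD4+ cells and was at 0.10 in CD11c+ cells, where it was not called (-1.12, adjusted p = 0.0019). The Lag3 changes did not differ detectably (0.55, 95% interval -0.05 to 1.16, adjusted p = 0.22).

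In tolerised against primed mice, 3 of 10 genes changed differently, against 11.3% of all genes. They were Lag3 (2.75, adjusted p = 1.3e-06), Nrn1 (1.81, adjusted p = 0.0015) and Rnf128 (1.4, adjusted p = 5e-04). None of the 3 is exact, since Lag3 and Rnf128 in primed CD4+ cells and Nrn1 in tolerised CD11c+ cells lay below the array median. Dtx1 gave -0.04 (95% interval -0.52 to 0.44), with changes of 0.45 in CD4+ and 0.49 in CD11c+ cells. Against unimmunised mice, 7 of 10 changed differently in tolerised (49.1% of all genes) and 6 of 10 in primed mice (42.1%). Ndfip1 was the clearest, with differences of 1.45 (adjusted p = 3e-09) in tolerised and 1.08 (adjusted p = 2.8e-07) in primed mice, since it rose in CD4+ and fell in CD11c+ cells.

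**Figure D5:**
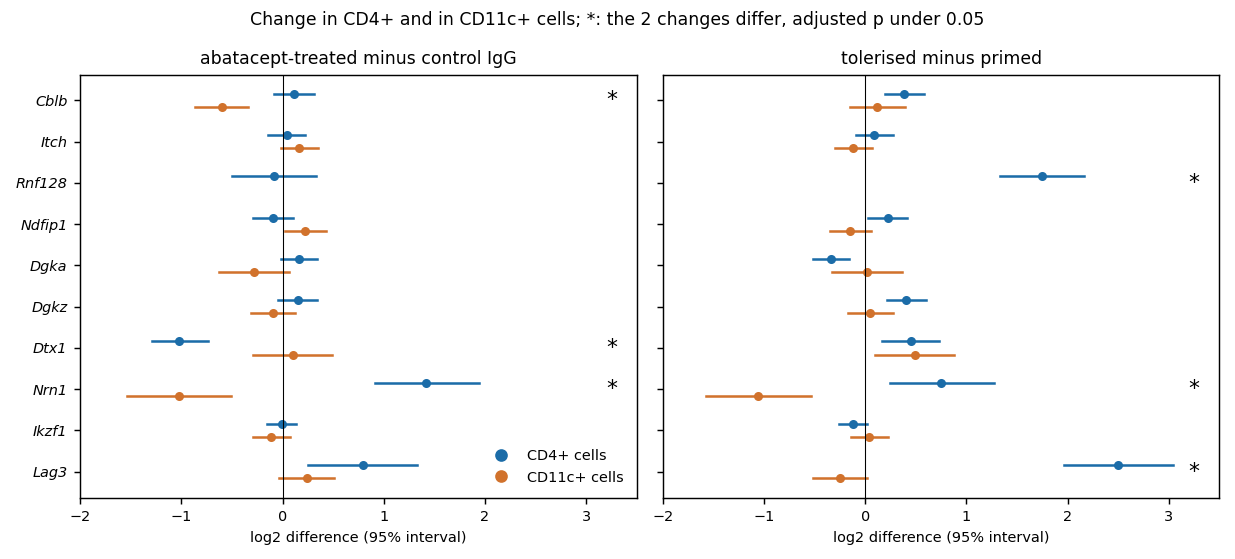
Log2 change of each of the 10 genes (vertical axis) in CD4+ cells (blue) and CD11c+ cells (orange), with 95% intervals, under abatacept against control IgG (left) and in tolerised against primed mice (right). A star marks genes whose 2 changes differed at an adjusted p under 0.05, and Rnf128 has no CD11c+ value because it did not pass the filter there. Nrn1 read 1.42 in CD4+ and -1.02 in CD11c+ cells in the left panel.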

How the data were processed

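Magnetic sorting gave CD4+ and CD11c+ cells, each of over 90% purity, per the labels' protocols, and biotin-labelled product of their RNA was read on Affymetrix PM expression arrays. The deposited table holds log2 values that the authors made with RMA, per the submitters' processing notes, with no version stated there. Its 45118 probe sets included 28898 with 1 gene symbol in the platform annotation. For each of 17097 genes the probe set brightest on average across all 30 arrays was kept. Scanner files were not used here.

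A gene was tested if it exceeded its array's median on 3 or more of a cell type's 15 arrays, which left 10322 in CD4+ and 10203 in CD11c+ cells, or 10794 in either. The fits used lmFit and eBayes of limma 3.58.1 (R 4.3.3) with all 5 groups, leaving 10 residual degrees of freedom, or 20 over both cell types. A gene was called at a two-sided Benjamini-Hochberg adjusted p under 0.05. The script was tested on simulated data. No label states that the replicates came from separate mice, so p-values measure only how these samples vary, possibly for technical reasons, and the number of arrays limits the precision. Within groups, arrays correlated at 0.983 to 0.995 across probe sets.

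The named genes are the 10 members with every probe set of theirs, the 3 genes with the highest Pearson r to each over the CD4+ arrays, and at most 4 called genes of each list per comparison, those with the smallest adjusted p. Marker genes shown by array were picked after their values were seen. The members and lists were chosen with earlier results of these data known. Alternatives were no filter, quantile normalization again, array weights, an intensity trend, a block for the replicate number, another probe set or a gene's mean over its probe sets, only the groups compared, levels relative to T cell markers and leaving out each array. A fit without the CD4+ unimmunised arrays was added after the data were seen. Promoter windows were taken from RefSeq. Plots were made in Python 3.11.15 (matplotlib 3.10.9).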

Additional observations from a re-analysis of the deposited data

Results flagged for a closer look

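The genes here are those whose change differed between CD4+ and CD11c+ cells in the interaction test of limma, each value being the CD4+ change minus the CD11c+ change on the log2 scale. For abatacept against control IgG these were Nrn1 (2.45), Cblb (0.72) and Dtx1 (-1.12). For tolerised against primed mice they were Lag3 (2.75), Nrn1 (1.81) and Rnf128 (1.4), the last with all its CD11c+ arrays below the array medians. In the tolerised, abatacept-treated and unimmunised CD11c+ groups Nrn1 lay below the array medians too. For tolerised against unimmunised mice they were Lag3 (1.84), Nrn1 (1.84), Dtx1 (1.48), Ndfip1 (1.45), Dgkz (1.08), Rnf128 (0.76) and Cblb (0.44). For primed against unimmunised mice they were Dtx1 (1.52), Ndfip1 (1.08), Dgkz (0.73), Dgka (0.48), Rnf128 (-0.64) and Lag3 (-0.91). CD4+ tissue differed between the groups in the last 3 comparisons and CD11c+ tissue did not, so tissue and cell type cannot be told apart there.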

How the results depend on the processing

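Counts of called genes moved by over 1.5 times in few cases. With only the groups compared in the fit, 3 genes were called in CD4+ cells between tolerised and primed mice and 3 between abatacept-treated and tolerised mice, and this fit has fewer arrays. Leaving out 1 array at a time gave 3 to 7 genes in CD4+ cells between tolerised and primed mice, 0 to 1 in CD11c+ cells for the same groups, and 1 to 2 in CD11c+ cells between abatacept and control IgG. The interaction count was 5 for tolerised against primed mice after quantile normalization again and 5 for abatacept against control IgG with array weights, and the cause was not tested. Replicate numbers did not pair the samples (0 of 45 pairs of groups had all correlations over 0.1, range -0.23 to 0.26). With the replicate block 0 genes were called in CD11c+ cells between tolerised and primed mice, and the other counts stayed within 1.5 times.

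Signs turned in 2 kinds of setting. Levels relative to T cell markers, a scaling that lowers every gene against unimmunised mice, gave for abatacept-treated mice Cblb -0.06, Ndfip1 -0.54, Dgka -0.24, Ikzf1 -0.57 and Lag3 -0.37, for tolerised mice Ndfip1 -0.04, Dgka -0.55 and Ikzf1 -0.52, and for primed mice Cblb -0.19, Ndfip1 -0.53, Dgka -0.47, Dgkz -0.21 and Ikzf1 -0.66. The mean of its probe sets turned Itch to 0.38 (abatacept against unimmunised), 0.34 (abatacept against tolerised) and 0.13 (primed against unimmunised). Its other probe sets gave 0.66 and 0.78, 0.55 and 0.60, and 0.23 and 0.40 in these comparisons, and 0.01, 0.25 (abatacept) and 0.24 (control IgG) for CD4+ against CD11c+ cells, where 1 Ndfip1 probe set gave 0.23 under control IgG. Without the CD4+ unimmunised arrays the count was 6 for tolerised against primed mice, where Nrn1 was no longer called (adjusted p = 0.08), and 2 for abatacept against control IgG, where Lag3 was no longer called (adjusted p = 0.067). Levels near or below the array medians (Rnf128, Nrn1, Lag3 in primed mice) limit those folds.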
